A study of Helianthus annuus with 180 samples.

Results

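The genes described here were more highly expressed on the shaded sides of sunflower stems 1 hour after unidirectional blue light was switched on. Their mean levels differed little between the sides 9 and 12 hours after the light was switched on. They were chosen from the normalized CPM values that the authors deposited for the phototropism experiment, in which the reads of a gene are scaled to the size of the library. For each gene and time point, d was the log2 ratio of the mean CPM on the shaded side to the mean CPM on the lit side, after 1 was added to both means. A gene was kept when its mean CPM over all libraries was at least 5, d at ZT4 was at least 0.7, and d at ZT12 and ZT15 lay within 0.3 of 0. Of the 32389 genes in the table, 20726 reached the mean and 259 met all limits, and the 150 with the largest d at ZT4 were taken. The side differences at ZT4, ZT12 and ZT15 therefore chose these genes and are given below as a description, with no test. ZT is the time in hours after dawn.

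All samples were stem peels of wild-type (WT) HA412-HO sunflowers (Helianthus annuus), taken from the first internodes of plants that were 2 weeks old. In the phototropism experiment, chamber-grown plants were placed before the blue lights at ZT3. Shaded and lit peels were collected at ZT3, 4, 5, 7, 9, 12, 15, 18 and 21, with 6 libraries per group. In the heliotropism experiment, plants that tracked the sun in the field were sampled on their west and east sides at ZT0, 4, 8, 12, 16 and 20 on 2 days. Each day gave 3 libraries per side at each time, or 72 in all, and the days were combined here into groups of 6. Each library pooled 2 plants, so that no library shows a single plant. A peel holds epidermis, cortex and vascular tissue, and in such a mixture fewer cells of a type and less RNA per cell cannot be told apart.

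Shoots bend toward blue light because the shaded side of the stem elongates more than the lit side. In Arabidopsis, the light is perceived by phototropins, the signal passes through scaffold proteins of the NPH3 family, and auxin is moved laterally by efflux carriers such as PIN3. Auxin is perceived by TIR1 and related F-box proteins, and brassinosteroid, ethylene and gibberellin pathways also act on elongation. The walls of growing cells are loosened by expansins and remodeled by enzymes acting on pectins and galactans. Bending later ceases and stems straighten again, a phase known as autostraightening.

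The estimated counts summed to 4485611 to 28394943 per phototropism library (median 11119560) and to 5074975 to 30834562 per field library (median 16615264). Each phototropism library correlated with the mean of its own group at r of 0.9617 or more, across genes, and each field library at 0.9659 or more. The sums of epidermal markers (10 of 10 present, 220 to 369 CPM on shaded sides, against 184 to 469 CPM on lit sides at ZT4) and of vascular markers (8 of 8 present, 230 to 360 CPM on shaded sides, against 191 to 315 CPM on lit sides) overlapped between the sides. One homolog each of FDH, ATML1 and SUC2 was at 0 in at least 1 library. Light-harvesting genes, used as markers of green tissue (10 of 10 present), summed to 2197 to 3120 CPM on shaded sides and 1778 to 2317 CPM on lit sides at ZT4. At ZT5 the sums were 2353 to 2784 CPM on shaded sides, against 1949 to 2576 CPM on lit sides. At ZT3 they averaged 2729 CPM on shaded sides, against 2712 CPM on lit sides. The part of green tissue in the results at ZT4 and ZT5 was not tested.

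The members averaged between 5.01 CPM, for Ha412HOChr01g0033681, and 622 CPM, for the TUB6 homolog Ha412HOChr17g0804491, with a median of 23.6 CPM, against 21.2 CPM for all genes that reached the minimum. CPM values are not scaled to transcript length. An Arabidopsis homolog was named for 138 members in the annotation of the study. That annotation covered 11587 genes, which the study in part listed because they differed in these same samples, so the homolog lists below are not independent of the results. In 5 cases 2 members had neighbouring gene numbers, and 4 Arabidopsis homologs were shared by 2 members each. Of the annotated genes other than members, 11.2% were higher on shaded sides at ZT5, 15.3% at ZT7, 13.4% at ZT9, 3.34% at ZT18 and 3.22% at ZT21 by the test used below. Similar copies can exchange reads, and their values are not independent.

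The study designed primers for quantitative PCR against the EIN3 homolog Ha412HOChr15g0726161 on chromosome 15. They are printed here because this gene is a member in which the shaded side itself rose, and because they are the member sequences held in the tables used here.
EIN3-like forward primer: caccacaacagctgccatag
EIN3-like reverse primer: ccccatggatcacagtaacc

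The median d of the members was 0.03 at ZT3 and 1.05 at ZT4. It then fell to 0.76 by ZT5, with 0.44 measured at ZT7, 0.32 by ZT9, 0.04 at ZT12 and -0.02 at ZT15. The other 20576 genes that reached the minimum of 5 CPM had medians between -0.02 and 0.03 at every time point. Among members, d at ZT4 ran from 2.31, for the BGAL1 homolog Ha412HOChr12g0542581, to 0.85 for the TPS7 homolog Ha412HOChr16g0783731. The next gene, Ha412HOChr09g0406201, had a d of 0.847 and was left out. A further 282 genes had an equally large d at ZT4 but lay beyond a limit at ZT12 or ZT15. Of these 282 genes, 209 were higher on the shaded side at ZT5 and 121 at ZT9 by the test used below. A large difference at ZT4 was thus not peculiar to genes whose difference was small at ZT12 and ZT15.

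**Figure D1:**
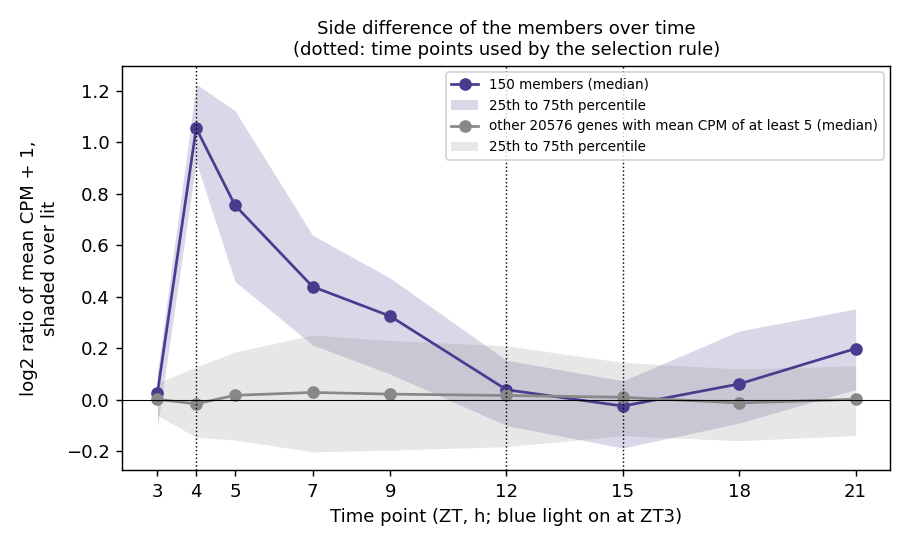
Side difference over time. The y axis is the log2 ratio of mean CPM + 1 on the shaded side over the lit side, and the x axis is the time point in hours. The line joins the medians of the 150 members, or of the other 20576 genes that reached the minimum, and the band spans the 25th to 75th percentile over genes. Dotted lines mark the time points used to choose the members, whose median falls to 0.76 at ZT5 and 0.32 at ZT9 and is 0.20 at ZT21.

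The decline differed among members. The difference was largest at ZT4 in 112 members, at ZT5 in 36 and at ZT7 in 2. The rule itself favours a maximum at ZT4, as it took the largest d there and limited d at ZT12 and ZT15. At ZT5, 83 members still had a d of at least 0.7 and 16 had one under 0.3. By ZT7, 32 members had a d of at least 0.7, and by ZT9 there were 8. Across the 150 members, the order at ZT4 and the order at ZT5 had a Spearman's rho of 0.35. The order at ZT5 had a rho of 0.73 with the order at ZT7 and of 0.54 with the order at ZT9. By the rule, no member had a d below 0.85 at ZT4, which narrows the range there. The first value therefore cannot be set against the others. The order at ZT5 had little to do with mean CPM (rho of 0.11). The members share libraries at each time point, so these correlations are descriptive.

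Between ZT3 and ZT4, the lit side moved further than the shaded side in most members. On shaded sides the median member was 0.03 above its ZT3 level at ZT4 on the log2 scale, with 80 members above and 70 at or below it. On lit sides the median member fell by 1.0 on the log2 scale, with 4 members above their ZT3 level and 76 more than 1 log2 unit below it. In 76 members the shaded side rose while the lit side fell, in 70 both sides fell, and in 4 both rose. The change on the shaded side was the larger of the pair in 35 members. In 93 members all 6 shaded libraries lay above all 6 lit libraries at ZT4, against 2.38% of the genes that reached the CPM minimum, a count that the rule itself favours, and at ZT3 in 0 members, against 0.00965%. Because time of day advanced with the light, an effect of the hour and an effect of the light on both sides cannot be told apart.

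**Figure D2:**
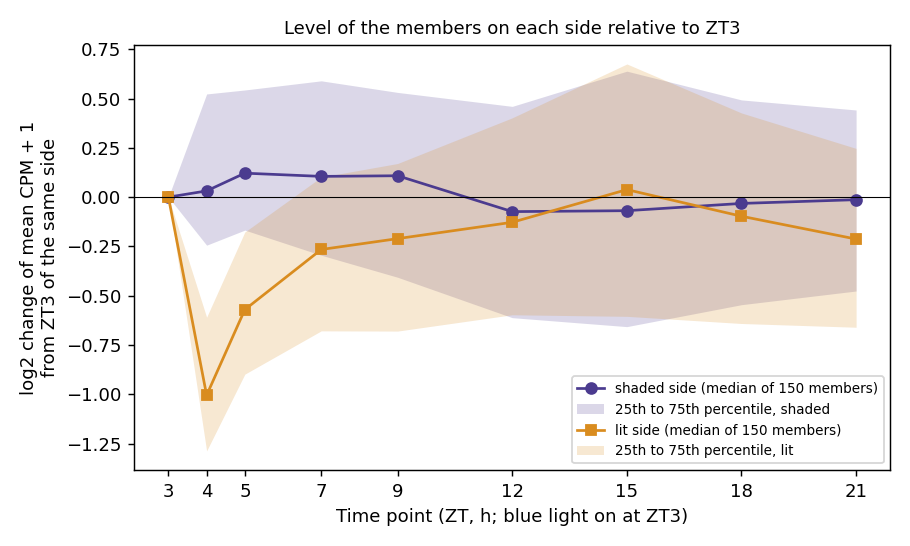
Level of the members relative to ZT3. The y axis is the log2 change of mean CPM + 1 from the ZT3 mean of the same side, and the x axis is the time point in hours. Circles are medians over the 150 members on the shaded side and squares on the lit side, with bands from the 25th to the 75th percentile over members. The shaded median stays between -0.07 and 0.12, while the lit median is -1.0 at ZT4 and -0.57 at ZT5.

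At ZT5, 2 hours after the light was switched on, a time whose side difference the rule did not use, 94 of the 150 members were more highly expressed on shaded sides and 0 on lit sides (edgeR quasi-likelihood test, Benjamini-Hochberg adjusted p under 0.05 over 32644 genes). Of all genes tested, 6.75% were higher on shaded and 7.36% on lit sides at this time. The median member differed by 0.79 on the log2 scale, and the sign was positive in 146. In 62 members all 6 shaded libraries lay above all 6 lit libraries, which held for 3.65% of the genes that reached the CPM minimum. Shaded and lit libraries of the same number were paired, as libraries of the same number deviated together, and in 117 members the shaded library was the higher one of each of the 6 pairs, which held for 15.9% of the genes that reached the CPM minimum. With the pairs as blocks the count was 131, against 13.1% of all genes. At ZT3, the start of the light, 0 members differed, also at an unadjusted p under 0.05, with DESeq2 and with the pairs as blocks, and the background was 0.00306% of genes in either direction.

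**Figure D3:**
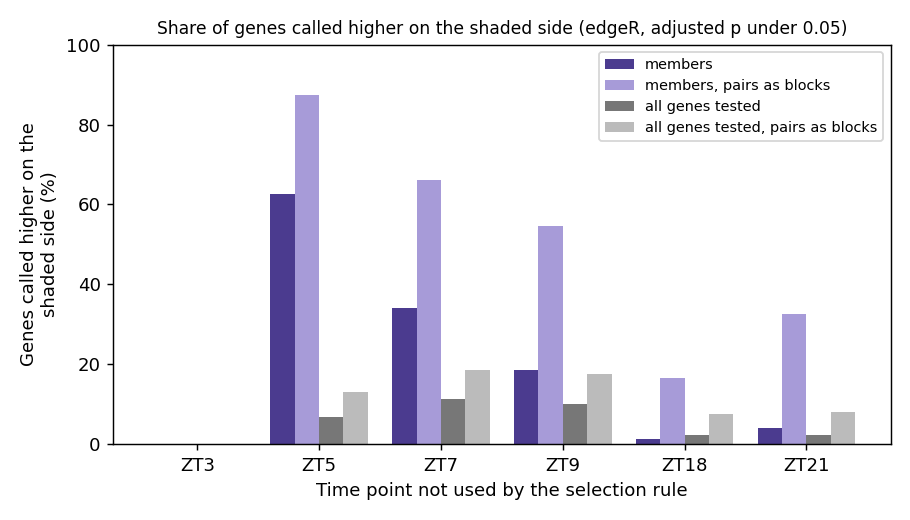
Share of genes that were more highly expressed on shaded sides at the time points not used to choose the members. The y axis is the percentage of genes with an adjusted p under 0.05 in edgeR, for the 150 members and for the 32644 genes tested, without and with the library pairs as blocks. Members stand above all genes at ZT5, ZT7 and ZT9, 94, 51 and 28 members being called without blocks. At ZT18, without blocks, the 2 members called make a smaller share than that of all genes. With blocks 25 members were called there, against 7.62% of all genes.

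LONGIFOLIA1 (LNG1) and LONGIFOLIA2 promote lengthwise growth of cells in Arabidopsis leaves. The LNG1 homolog Ha412HOChr17g0822481 had 24.4, 27.4 and 45.3 CPM (lowest, median and highest library) on shaded sides at ZT3, against 21.5, 27.3 and 39.5 CPM on lit sides. At ZT4 it averaged 133 ± 19.1 CPM on shaded sides (SD, n = 6, median 132 and highest 165), against 17.4, 23.5 and 43.4 CPM on lit sides. At ZT5 the values were 86.6, 153 and 187 CPM on shaded sides, against 23.9, 39.2 and 56.1 CPM on lit sides. The sides overlapped at ZT3 and were fully separate at ZT4 and ZT5. The ZT5 difference was 1.90 ± 0.20 on the log2 scale (SE, n = 6 each, adjusted p = 3.22e-13), and the LNG1 homolog was still higher on shaded sides by 0.96 at ZT7 and by 0.67 at ZT9 (adjusted p = 6.89e-05 and 0.0058). Here the shaded side moved: it rose by 2.29 between ZT3 and ZT5 (adjusted p = 1.11e-15), while the lit side changed by 0.46 (adjusted p = 0.0834). At ZT12 the LNG1 homolog averaged 86.4 ± 11.5 CPM on shaded sides, against 74.5 ± 6.61 CPM on lit sides. The LNG2 homolog Ha412HOChr15g0706161, picked out after its values were seen, had 23.9, 26.6 and 31.4 CPM on shaded sides at ZT5, against 9.32, 10.6 and 12 CPM on lit sides (difference 1.34 ± 0.18, adjusted p = 5.33e-09), with no overlap.

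Beta-tubulins build the microtubules that orient cellulose deposition. The TUB6 homolog Ha412HOChr17g0804491 had 231, 329 and 483 CPM on shaded sides at ZT5, against 54.6, 66.9 and 144 CPM on lit sides. Its difference of 2.00 ± 0.24 (adjusted p = 1.18e-10) was followed by 1.81 at ZT7, with an adjusted p of 2.25e-09. It did not return to its ZT3 level. From a mean of 119 ± 60.9 CPM on shaded sides, against 118 ± 62.8 CPM on lit sides at ZT3, the TUB6 homolog reached 1147 ± 86.7 CPM on shaded sides, against 584 ± 130 CPM on lit sides at ZT9, and 1574 ± 179 CPM on shaded sides, against 1284 ± 101 CPM on lit sides at ZT12. Between ZT5 and ZT9 it rose by 1.80 on the shaded side (adjusted p = 3.55e-09) and by 2.86 on the lit side (adjusted p = 5.31e-17).

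**Figure D4:**
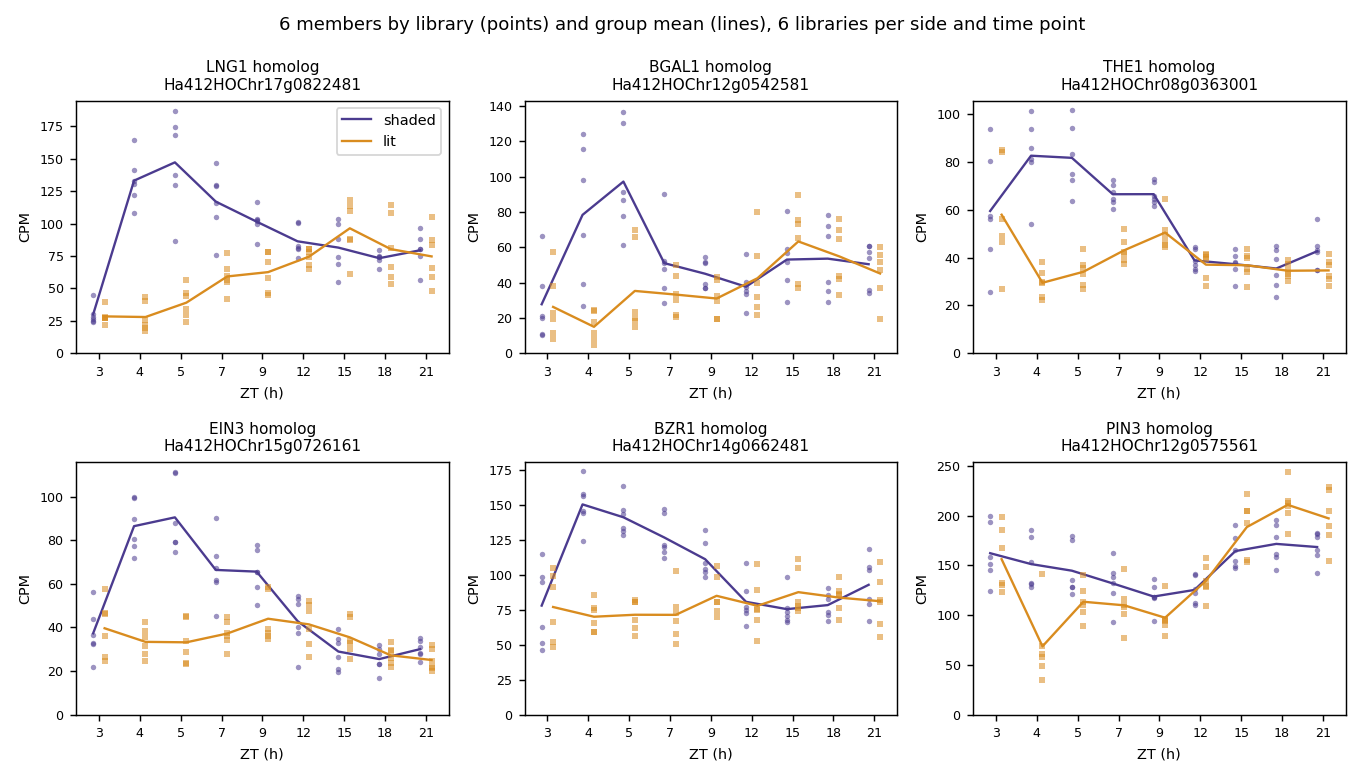
Normalized CPM of 6 members by library. The x axis is the time point in hours and the y axis CPM; each point is 1 library, shaded or lit, and lines join the means of the 6 libraries per side. In the LNG1 homolog the shaded libraries average 133 CPM and the lit ones lie at 17.4 to 43.4 CPM at ZT4, and in the PIN3 homolog 1 lit library lies at 141 CPM among the shaded ones.

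The members with the largest and the third largest d at ZT4 were neighbouring homologs of BGAL1, a beta-galactosidase that trims galactose from cell wall polymers in Arabidopsis. Ha412HOChr12g0542581 had 61.3, 88.9 and 137 CPM on shaded sides at ZT5, against 14.6, 21.6 and 69.7 CPM on lit sides. The difference was 1.47 ± 0.38 (adjusted p = 0.00315), and 1 or more lit libraries overlapped the shaded range. In the second copy, Ha412HOChr12g0542591, the sides differed by 1.31 ± 0.41 (adjusted p = 0.0182), a call that was lost without replicate 1, 3 or 4 (highest adjusted p = 0.17). Both BGAL1 copies rose on the shaded side between ZT3 and ZT5, by 1.81 and 1.58 (adjusted p = 0.000682 and 0.00706, the second lost without replicate 4 at 0.0522). Their shaded libraries at ZT4 ranged from 26.9 to 124 and from 17.5 to 60.5 CPM.

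Of the 5 members in the cell wall list, 4 were more highly expressed on shaded sides at ZT5, with a median difference over the 5 of 0.89. Of the 120 other annotated cell wall genes tested, 29 were higher on shaded sides and 5 on lit sides (median 0.21). The homolog of EXPA8, an expansin, which loosens walls under acid pH, had 151, 254 and 311 CPM on shaded sides (Ha412HOChr09g0394451), against 61.7, 84.6 and 115 CPM on lit sides, with no overlap. The EXPA8 homolog differed by 1.5 ± 0.27 (adjusted p = 9.46e-06), rose on the shaded side by 1.86 from ZT3 (adjusted p = 4.15e-07) and changed on the lit side by 0.11 (adjusted p = 0.846). The pectin lyase-like genes Ha412HOChr14g0683181 and Ha412HOChr07g0308601, which share an Arabidopsis homolog, differed by 1.093 and 0.89 (adjusted p = 3.19e-08 and 2.66e-07) by the other route. Their lit sides fell from ZT3 by 0.89 and 0.95, and their shaded sides changed by 0.11 and 0.09 (adjusted p = 0.788 and 0.821). The homolog of FLA17, a fasciclin-like arabinogalactan protein (Ha412HOChr11g0525251), differed by 0.87 (adjusted p = 0.000102). On both sides it fell from ZT3, by 0.60 on shaded and 1.62 on lit sides, the shaded call being lost without replicate 1, 3, 4 or 5 (highest adjusted p = 0.12). A pectin methylesterase inhibitor-like gene, Ha412HOChr08g0347091, had 8.45 to 30.3 CPM on shaded sides, against 9.25 to 21 CPM on lit sides at ZT5 (difference 0.15, adjusted p = 0.848). It then rose on both sides, by 3.18 on shaded and 2.71 on lit sides between ZT5 and ZT9.

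Transcription factors of brassinosteroid signaling were also members, and in 2 of them the shaded side rose. All 3 members of the brassinosteroid and gibberellin list were higher on shaded sides at ZT5 and at ZT7. Of 38 other genes of the list, 11 were higher on shaded and 4 on lit sides at ZT5, and 10 and 6 at ZT7. BZR1 and BES1 are the transcription factors that carry brassinosteroid signals into the nucleus in Arabidopsis, and BIM1 is a partner of BES1. The BZR1 homolog Ha412HOChr14g0662481 had 129, 138 and 164 CPM on shaded sides at ZT5, against 56.4, 74.0 and 82.0 CPM on lit sides. The sides did not overlap and differed by 0.97 ± 0.16 (adjusted p = 2.71e-06). The BZR1 homolog had risen on the shaded side by 0.85 from ZT3 (adjusted p = 0.000143) and changed by -0.10 on the lit side (adjusted p = 0.758). The BIM1 homolog Ha412HOChr04g0161671 had 22.8, 38.4 and 45.3 CPM on shaded sides, against 10.3, 13.8 and 18.7 CPM on lit sides (difference 1.4 ± 0.16, adjusted p = 2.17e-11). It too rose on the shaded side, by 1.14 (adjusted p = 1.06e-07). In the BES1 homolog Ha412HOChr09g0418091, which differed by 0.81 (adjusted p = 0.000247), the shaded side stayed near its ZT3 level (change 0.06, adjusted p = 0.92) and the lit side fell by 0.76 (adjusted p = 0.000504).

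Ethylene and cytokinin signaling genes were also represented. All 3 members of that list were higher on shaded sides at ZT5, against 7 higher on shaded and 2 on lit sides among 43 other genes. EIN3 is the transcription factor that executes ethylene responses. Its homolog, whose primers are printed above (Ha412HOChr15g0726161), had 74.7, 83.5 and 111 CPM on shaded sides at ZT5, against 23.1, 31.2 and 45.4 CPM on lit sides. At ZT3 the EIN3 homolog had 21.9, 34.6 and 56.5 CPM on shaded sides, against 24.7, 41.2 and 57.5 CPM on lit sides, so the sides overlapped before the light and were separate after it. The difference was 1.44 ± 0.20 (adjusted p = 8.02e-09), with a rise of 1.27 on the shaded side (adjusted p = 1.22e-06) and a change of -0.26 on the lit side (adjusted p = 0.411). The homolog of the ethylene receptor ETR2 (Ha412HOChr03g0142771) differed by 0.84 (adjusted p = 1.62e-05) through a fall of 0.95 on the lit side. The homolog of ARR1, a cytokinin response regulator (Ha412HOChr11g0532781), differed by 0.62 (adjusted p = 0.0109), its lit side having fallen by 0.76. Homologs of the histidine kinase AHK1 and of the cytokinin receptor AHK2 stood outside the list and were picked out after their values were seen. They differed by 0.75 (AHK1, Ha412HOChr14g0664061, adjusted p = 0.000378) and 0.54 (AHK2, Ha412HOChr10g0464841, adjusted p = 0.00234).

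Members in the auxin list were the PIN3 and TIR1 homologs and genes of the NPH3 family, and their differences were smaller. At ZT5, 3 of the 6 were higher on shaded sides, with a median of 0.44, while of 98 other annotated auxin genes 24 were higher on shaded and 9 on lit sides. At ZT7 and ZT9 the count without blocks was 0 of 6. Of the 98 others, 16 and 13 were higher on shaded sides at these times, and 17 and 14 on lit sides. The shaded library was the higher one in all 6 pairs in the PIN3 and NPY2 homologs at ZT7. At ZT9 this held for the TIR1 homolog and Ha412HOChr10g0433031. It held for 22.3% and 21.2% of the genes that reached the CPM minimum. In Ha412HOChr09g0408381 the shaded library was higher in 1 pair at ZT7 and in 2 at ZT9. The homolog of TIR1, the auxin receptor (Ha412HOChr15g0721201), had 89.3, 110 and 150 CPM on shaded sides at ZT5, against 62.9, 74.0 and 84.1 CPM on lit sides, with no overlap (difference 0.66 ± 0.11, adjusted p = 5.47e-06). Its lit side had fallen by 0.77 from ZT3 (adjusted p = 8.05e-08). The NPY2 homolog Ha412HOChr10g0459121 and the NPH3-like gene Ha412HOChr10g0433031, both of the NPH3 family, differed by 0.54 and 0.74 (adjusted p = 0.00394 and 0.00848). The call of Ha412HOChr10g0433031 was lost without replicate 1 or 4 (highest adjusted p = 0.071). Against this, NPH3-like Ha412HOChr09g0408381 had 13.6, 21.5 and 27.2 CPM on shaded sides, against 6.30, 9.45 and 14 CPM on lit sides at ZT4, and an hour later 15.3 to 19.9 CPM on shaded sides, against 14.3 to 21.7 CPM on lit sides (difference -0.08, adjusted p = 0.851). NPH3-like Ha412HOChr01g0002101 likewise showed a difference of -0.07 at ZT5 (adjusted p = 0.908).

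The PIN3 homolog Ha412HOChr12g0575561 had 125, 155 and 199 CPM on shaded sides at ZT3, against 123, 150 and 198 CPM on lit sides. At ZT4 it had 128, 143 and 185 CPM on shaded sides, against 34.4, 59.2 and 141 CPM on lit sides, replicate 2 being the lit library that overlapped. At ZT5 it had 121, 132 and 179 CPM on shaded sides, against 89.5, 111 and 140 CPM on lit sides. The lit median of the PIN3 homolog was thus lower at ZT4 than at ZT3, and the ZT5 median lay between them. The ZT4 values helped to choose this gene, and its change from ZT4 to ZT5 was not tested. The ZT5 difference of 0.34 ± 0.16 did not pass the test (adjusted p = 0.152) and passed with the pairs as blocks (0.33, adjusted p = 0.0119). Both members in the transport list, the homologs of the auxin transporter ABCB1 (Ha412HOChr01g0042981) and of the calcium channel CNGC15 (Ha412HOChr02g0087231), were higher on shaded sides at ZT5, by 0.44 and 0.81 (adjusted p = 0.0426 and 0.000878). The ABCB1 call was lost without replicate 1, 2, 4 or 5 (highest adjusted p = 0.2). Among the 345 other transport genes, 34 were higher on shaded and 52 on lit sides.

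In the list of phosphatases and kinases as a whole, 6 of 12 members were higher on shaded sides at ZT5 (median 0.84), against 98 higher on shaded and 51 on lit sides among 544 others. THESEUS1 (THE1) and HERCULES1 (HERK1) are related receptor-like kinases of Arabidopsis, THE1 acting as a sensor of cell wall integrity. The THE1 homolog Ha412HOChr08g0363001 had 63.7, 79.2 and 102 CPM on shaded sides at ZT5, against 26.7, 34.4 and 43.6 CPM on lit sides, with no overlap. It differed by 1.26 ± 0.17 (adjusted p = 5.4e-09), its lit side having fallen by 0.76 (adjusted p = 0.000263) and its shaded side having changed by 0.45 (adjusted p = 0.0844). The HERK1 homolog Ha412HOChr09g0391831, picked out after its values were seen, had 29.5, 46.5 and 87.5 CPM on shaded sides, against 10.9, 21.9 and 30.0 CPM on lit sides (difference 1.28 ± 0.26, adjusted p = 0.000102), its lit side having fallen by 1.60 (adjusted p = 8.34e-07). A LysM domain kinase (Ha412HOChr02g0049371) and a leucine-rich repeat kinase (Ha412HOChr14g0655881) differed by 1.05 and 1.00 (adjusted p = 6.99e-09 and 6.78e-08), and a protein kinase, Ha412HOChr16g0757301, by 0.22 (adjusted p = 0.496 and, with the pairs as blocks, 0.0327). An intracellular leucine-rich repeat protein, the PIRL4 homolog Ha412HOChr14g0665191, also picked out after its values were seen, had 176 to 284 CPM on shaded sides, against 74.0 to 137 CPM on lit sides at ZT5 (difference 1.37, adjusted p = 6.97e-11).

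Of 12 members in the list of transcription factors, 8 were higher on shaded sides at ZT5 (median 0.92), against 74 higher on shaded and 40 on lit sides among 488 others. The homeodomain genes HB40 and HB13 were among them. The HB40 homolog Ha412HOChr17g0842951 had 26.8, 33.7 and 50.3 CPM on shaded sides, against 11.2, 12.5 and 16.2 CPM on lit sides (difference 1.5 ± 0.18, adjusted p = 2.25e-10). In HB40 both sides moved, the shaded side rising by 0.61 (adjusted p = 0.0208, lost without replicate 2, 3 or 4, highest 0.15) and the lit side falling by 1.15 (adjusted p = 4.76e-07). The HB13 homolog Ha412HOChr17g0857181 differed by 0.96 (adjusted p = 4.68e-08), its lit side having fallen by 0.72. A zinc finger gene of the A20/AN1 type, Ha412HOChr11g0511721, differed by 0.97 (adjusted p = 5.95e-07). The CZF1 homolog Ha412HOChr09g0393251, a CCCH zinc finger gene, had fallen on both sides, by 1.02 on shaded and 1.88 on lit sides (adjusted p = 0.000293 and 4.13e-12). Its side difference of 0.55 gave an adjusted p of 0.0557, and 0.000249 with the pairs as blocks. Ha412HOChr13g0632801, whose homolog has a duplicated homeodomain-like fold, gave the smallest adjusted p of any member at ZT5 (6.4e-16). It had 152, 186 and 228 CPM on shaded sides, against 62.7, 76.1 and 97.6 CPM on lit sides, a difference of 1.25 ± 0.11. The shaded side of Ha412HOChr13g0632801 rose by 1.00 and its lit side fell by 0.45 from ZT3 (adjusted p = 1.07e-10 and 0.00137).

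No member belonged to the list of light and clock genes, which held 75 of the 11587 annotated genes. For so short a list, the absence says little about the members. Of the 70 genes of the list that were tested, 10 were higher on shaded and 26 on lit sides at ZT5. The list was drawn up by gene names, and PKS1, described next, stood outside it. The homolog of PKS1, a phytochrome kinase substrate that takes part in phototropism in Arabidopsis (Ha412HOChr08g0330391), had 3.38, 5.10 and 7.85 CPM on shaded sides at ZT4, against 0.393, 0.575 and 1.13 CPM on lit sides. It differed by 1.35 ± 0.28 at ZT5 (adjusted p = 0.000111), its lit side having fallen by 1.29 from ZT3 (adjusted p = 0.000146) and risen by 1.35 by ZT9 (adjusted p = 6.8e-05). A gene with a DnaJ domain, Ha412HOChr16g0802191, had 4.26, 9.81 and 15.4 CPM on shaded sides at ZT4, against 1.01, 2.10 and 3.09 CPM on lit sides. At ZT5 the sides of Ha412HOChr16g0802191 were at 8.77 to 23.4 and 6.20 to 19.3 CPM, shaded and lit, and differed by 0.01 (adjusted p = 0.997). This was the smallest ZT5 difference of the 10 members with the largest d at ZT4. Among those 10, 2 had no Arabidopsis homolog in the annotation, Ha412HOChr10g0469891 and Ha412HOChr10g0463321, with ZT5 differences of 1.37 and 1.51 (adjusted p = 1.69e-05 and 2.65e-07). The remaining 3 of the 10 were a receptor-like kinase (Ha412HOChr09g0422751, 1.00, adjusted p = 0.000495), a DnaJ protein with tetratricopeptide repeats (Ha412HOChr06g0250351, 1.68, adjusted p = 0.000679) and a protein with a Phox/Bem1p domain (Ha412HOChr12g0548141, 0.88, adjusted p = 0.0123). The last of these calls was lost without replicate 2 or 5 (highest adjusted p = 0.06).

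The change from ZT3 to ZT5 was then tested on each side. On lit sides 80 members fell and 2 rose (1 without replicate 2 or 5), with a median of -0.61, whereas 10.2% of all genes fell and 9.85% rose. On shaded sides 32 members rose and 9 fell, with a median of 0.13, whereas 3.40% of all genes rose and 3.10% fell. Combining both, 65 members fell on the lit side with no call on the shaded side, 24 rose on the shaded side with no call on the lit side, 6 rose on the shaded and fell on the lit side, 9 fell on both, 2 rose on both and 44 had no call on either. The 2 that rose on both sides were a DnaJ-domain gene (Ha412HOChr14g0637611) and a major facilitator superfamily gene (Ha412HOChr09g0421361), named after their values were seen. The difference between the sides in this change was tested as an interaction, and in 66 members the change was more positive on shaded sides, in 0 on lit sides, against 2.69% and 2.86% of all genes. The count was 107 with the pairs as blocks (7.58% of all genes) and 43 without replicate 1 or without replicate 3. In both BGAL1 homologs this test passed only with the pairs as blocks (Ha412HOChr12g0542581, 1.4, adjusted p = 0.126, and 1.61, adjusted p = 1.58e-05, with blocks).

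At ZT7, 51 members were higher on shaded sides and 0 on lit sides (median 0.45), against 11.4% and 11.8% of all genes. At ZT9 there were 28 and 0 (median 0.32), against 10% and 12.2% of all genes. With the pairs as blocks the counts were 99 on shaded sides and 1 on lit sides at ZT7 (18.6% of all genes on shaded sides) and 82 and 3 at ZT9 (17.7%). The ZT9 count was 18 without replicate 6. The shaded libraries all lay above the lit ones in 28 members at ZT7 and 16 at ZT9, against 5.98% and 8.17% of genes that reached the CPM minimum, so that by ZT9 the members stood close to the background on this measure. Of the 94 members higher on shaded sides at ZT5, 48 were so at ZT7 and 22 at both ZT7 and ZT9, while 42 were so at neither. A further 52 members were called at none of these time points. These counts are without blocks, and with the pairs as blocks 131 members were called at ZT5 alone.

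Between ZT5 and ZT9, more members rose on lit sides than fell on shaded sides. The rule asked for a large d at ZT4 and a small one at ZT12 and ZT15. It therefore favoured a shrinking side difference here, and the shares of all genes below are not a like background. On lit sides 59 members rose and 3 fell (median 0.38), whereas 9.60% of all genes rose and 8.38% fell. On shaded sides 26 members fell and 15 rose (median -0.15), whereas 8.18% of all genes fell and 7.07% rose, and the 26 became 16 without replicate 6. The LNG1 homolog Ha412HOChr17g0822481 showed both movements, a fall of 0.55 on shaded sides (adjusted p = 0.0352, lost without replicate 1, 2, 3 or 5, highest 0.125) and a rise of 0.68 on lit sides (adjusted p = 0.00672, lost without replicate 4, highest 0.091). As an interaction, the side difference was smaller at ZT9 than at ZT5 in 15 members and larger in 0, with 0.597% of all genes smaller and 0.429% larger, and 67 members had an unadjusted p under 0.05. The count was 77 smaller and 1 larger with the pairs as blocks (6.01% of all genes smaller), and 0 to 7 when replicates 1 to 6 were left out in turn, the lowest without replicate 4. Libraries of the same number also deviated together between ZT5 and ZT9 (r of 0.3605 to 0.5098 on shaded and 0.2295 to 0.4454 on lit sides), and with the number as a block over time points the interaction count was 32 and 6 members fell on lit sides. Of the 15, the DUF641 gene Ha412HOChr10g0463301 had the side differences 2.14 at ZT5 and 0.78 at ZT9 (adjusted p = 1.79e-13 and 0.00227), and the interaction gave -1.35 (adjusted p = 0.011, lost without replicate 1, 3 or 4, highest 0.072).

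Late in the time course a small shaded bias was again measured. At ZT21, 123 of 150 members had a d above 0, with a median of 0.20, against 0.00 in the other genes. The test called 6 members higher on shaded sides and 0 on lit sides, against 2.19% and 4.03% of all genes, and 33 members had an unadjusted p under 0.05. The shaded libraries all lay above the lit ones in 7 members, against 1.81% of genes that reached the CPM minimum. The number called was 49 with the pairs as blocks (8.01% of all genes), 13 with a model of that time point alone and 3 without replicate 1, 3 or 4. An ankyrin repeat gene, Ha412HOChr15g0708511, had 72.7, 97.6 and 125 CPM on shaded sides at ZT21, against 42.7, 67.8 and 83.7 CPM on lit sides (difference 0.60 ± 0.15, adjusted p = 0.00573). The HB40 homolog Ha412HOChr17g0842951 differed by 0.64 (adjusted p = 0.0115), with 37.6 to 54.1 CPM on shaded sides, against 22.0 to 36.9 CPM on lit sides, which did not overlap. The HB40 call was lost without replicate 1 or 4 (highest adjusted p = 0.057). At ZT18, 2 members were called higher on shaded and 0 on lit sides, against 2.2% and 4.31% of all genes, and 25 and 3 with the pairs as blocks (7.62%). The ZT18 count was 8 with a model of that time point alone and 1 without replicate 1, 3, 4 or 6. For models of 1 time point or without a replicate, the share of all genes is not given, so these counts have no background. Ha412HOChr04g0188881, of unknown function, was one of the 2 (difference 0.57, adjusted p = 0.00393), and it was also called at ZT21 (0.54, adjusted p = 0.00631).

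All 150 members were also measured in solar tracking plants, where the west side is compared with the east side. At ZT0, 0 members differed (26 at an unadjusted p under 0.05, 2 with DESeq2, background 0.0554% in either direction, 0.0321% higher and 0.0233% lower on west sides). At ZT4, 1 member was lower on west sides (background 0.128% lower and 0.0233% higher), and 0 without replicate 1, 2 or 3. At ZT8, 13 members were lower on west sides and 0 higher, against 0.866% of all genes lower and 0.708% higher. At ZT12, 7 were higher on west sides and 4 lower, against 0.635% and 1.15% of all genes. At ZT16, 34 members were higher on west sides and 3 lower, against 3.43% and 2.35% of all genes. At ZT20, 5 were higher and 3 lower, against 2.63% and 0.918%. The number called in either direction without replicate 1, 2 or 3 was 1 to 5 at ZT8 in place of 13, 3 to 5 at ZT12 in place of 11, 14 to 22 at ZT16 in place of 37 and 1 to 2 at ZT20 in place of 8. Both sides were peeled from the same plants at each time, and west and east libraries of the same number mostly deviated together (r over 0.1 in 35 of 36 pairs). With the number as a block, every call was kept and more members passed: 6 higher and 1 lower at ZT0 (0.787% and 0.39% of all genes), 0 and 10 at ZT4 (0.819% and 0.737%), 0 and 32 at ZT8 (2.5% and 2.69%), 25 and 14 at ZT12 (3.28% and 4.82%), 52 and 11 at ZT16 (6.31% and 6.19%) and 10 and 10 at ZT20 (5.48% and 3.59%). In all, without blocks, 53 members were called at 1 or more times, against 9.82% of all genes.

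The 13 members lower on west sides at ZT8 all had positive differences at ZT16. Of the 34 members higher on west sides at ZT16, 31 had negative differences at ZT8, and 6 were called at both times. The share of all called genes with such opposite signs was not counted, so these counts have no background. Over all 150 members, the difference was above 0 in 45 at ZT8 and in 103 at ZT16. The median west minus east difference of the members was -0.14 at ZT8 and 0.14 at ZT16, against 0.02 and -0.01 over all genes. Among the 34, 30 had been higher on shaded sides at ZT5 of the phototropism experiment (30 of 34 and 30 of 94), and 12 of the 13 had been (12 of 13 and 12 of 94). Of all 150 members, 94 had been. Across members, the ZT5 side difference and the field difference had a rho of -0.51 at ZT8 and 0.35 at ZT16, and between -0.06 and 0.16 at the other times.

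The TUB6 homolog Ha412HOChr17g0804491 had 159, 206 and 243 CPM on west sides at ZT8, against 366, 395 and 485 CPM on east sides (difference -1.01 ± 0.13, adjusted p = 2.75e-07). At ZT20 the order was reversed and TUB6 had 678, 805 and 1028 CPM on west sides, against 371, 445 and 589 CPM on east sides (0.89 ± 0.13, adjusted p = 1.02e-05). The sides did not overlap at either time. The LNG1 homolog Ha412HOChr17g0822481 had 20.2, 25.5 and 32.4 CPM on west sides at ZT8, against 30.8, 35.1 and 46.3 CPM on east sides (-0.51 ± 0.14, adjusted p = 0.0491, lost without replicate 1, 2 or 3, highest 0.47). At ZT16 LNG1 had 99.4, 111 and 115 CPM on west sides, against 53.4, 67.2 and 93.9 CPM on east sides (0.66 ± 0.14, adjusted p = 0.000955), and the sides overlapped at ZT8 but not at ZT16. The DUF641 gene Ha412HOChr10g0463301 had the smallest adjusted p at ZT16 (9.57e-08), with 60.1, 65.2 and 85.8 CPM on west sides, against 24.9, 31.3 and 41 CPM on east sides. A remorin, of a family of membrane-bound plant proteins (Ha412HOChr16g0759171), was lower on west sides at ZT8 and ZT12, by 0.51 and 0.59 (adjusted p = 0.00214 and 0.000115), and higher by 0.58 at ZT16 (adjusted p = 0.000114). The ZT8 call of the remorin was lost without replicate 2 or 3 (highest adjusted p = 0.16).

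The TIR1 homolog Ha412HOChr15g0721201 had 191, 207 and 249 CPM on west sides at ZT16, against 135, 165 and 182 CPM on east sides (0.40 ± 0.10, adjusted p = 0.00944, lost without replicate 1, 2 or 3, highest 0.42). The EXPA8 homolog Ha412HOChr09g0394451 was lower on west sides by 0.80 at ZT4 and 0.92 at ZT8 (adjusted p = 0.0491 and 0.00262), both calls lost without replicate 1, 2 or 3 (highest 0.76 and 0.46). The ARR1 homolog Ha412HOChr11g0532781 was lower on west sides by 0.45 at ZT8 and higher by 0.37 at ZT16 (adjusted p = 0.00937 and 0.0154). Without replicate 2 or 3 both ARR1 calls were lost, and the first also without replicate 1 (highest 0.23 and 0.27). The homolog of RBK1, a kinase that binds ROP GTPases (Ha412HOChr09g0403291), had 9.56, 10.9 and 13.3 CPM on west sides at ZT12, against 5.51, 6.57 and 7.01 CPM on east sides (0.77 ± 0.13, adjusted p = 7.79e-05). The DnaJ gene Ha412HOChr16g0802191 went the other way at ZT16, with 9.32, 14.1 and 19.2 CPM on west and 18.2, 22.6 and 26.7 CPM on east sides (-0.66 ± 0.16, adjusted p = 0.00686, lost without replicate 1 or 3, highest 0.15). The GATA11 homolog Ha412HOChr07g0314981 was lower on west sides by 0.43 at ZT20 (adjusted p = 0.0433, lost without replicate 1, 2 or 3, highest 0.37). The EIN3, BZR1 and PIN3 homologs were called at none of the 6 times without blocks (Ha412HOChr15g0726161, Ha412HOChr14g0662481 and Ha412HOChr12g0575561), with adjusted p of 0.179, 0.275 and 0.211 at the lowest. With the replicate number as a block, the EIN3 homolog passed at ZT4, ZT12 and ZT16 (-0.28, 0.32 and 0.18, adjusted p = 0.0126, 0.000565 and 0.0355), and the BZR1 and PIN3 homologs passed at ZT16 (-0.26 and 0.26, adjusted p = 0.0456 and 0.0123).

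In the field most members were rhythmic. A cosine curve of 24 hours passed the test (q under 0.05) in 143 members on west sides and 144 on east sides, or 95.3% and 96.0%, against 69.6% and 74.0% of all genes. The median relative amplitude, the amplitude over the mean level, was 0.520 on west and 0.454 on east sides, against 0.292 and 0.287 over all rhythmic genes. Peaks gathered late in the 24-hour cycle. On west sides 63 rhythmic members peaked between ZT16 and ZT20 and 45 between ZT20 and ZT24, or 44.1% and 31.5%, against 16.6% and 20.1% of all rhythmic genes. Between ZT8 and ZT12, where 22.6% of all rhythmic genes peaked on west sides, there were 6 members. Of 138 members that were rhythmic on both sides, 3 had peaks more than 3 hours apart and 7 had amplitudes more than 2-fold apart, and the amplitude was larger on west sides in 97, against 1375, 813 and 10673 of the 21366 genes that were rhythmic on both sides. The largest relative amplitudes were those of the BGAL1 homologs, 1.35 on west sides for Ha412HOChr12g0542581, with a peak at 18.5 h, and 1.32 on east sides for Ha412HOChr12g0542591. The LNG1 homolog Ha412HOChr17g0822481 had amplitudes of 32.6 CPM on west and 16.6 CPM on east sides and peaked at 16.8 h on west and 18.5 h on east sides.

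**Figure D5:**
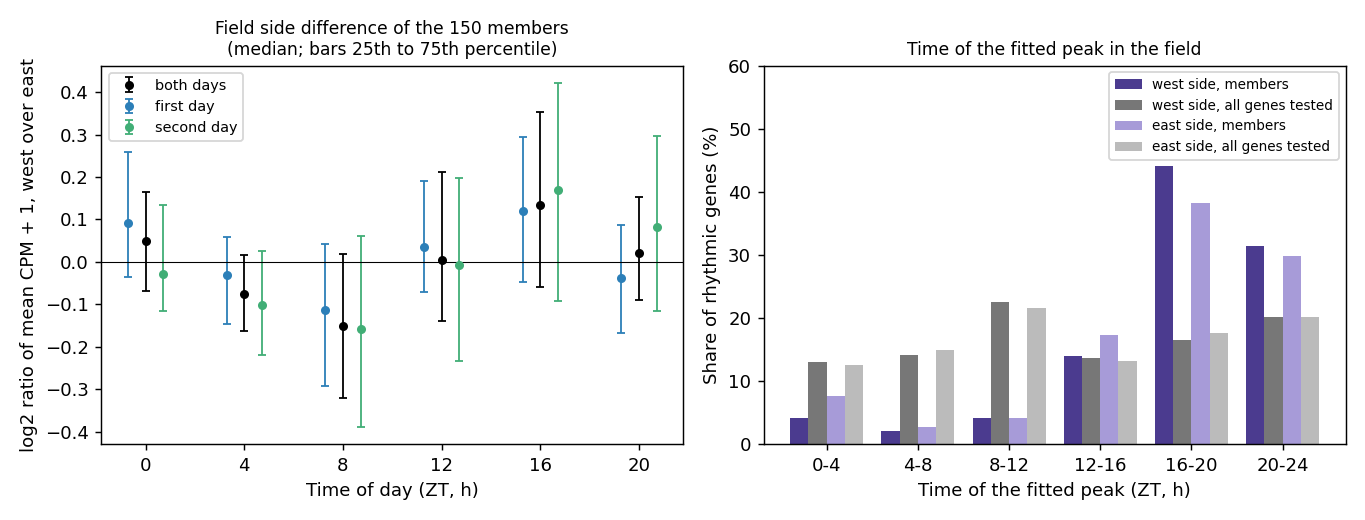
The members in solar tracking plants. In the left panel, points are the medians over the 150 members of the log2 ratio of mean CPM + 1 on the west over the east side, by time of day in hours, for both days together and for each day, with bars from the 25th to the 75th percentile over members; the medians at ZT8 are -0.11 on the first and -0.16 on the second day, and those at ZT16 are 0.12 and 0.17. In the right panel, bars give the share of rhythmic genes, in percent, whose fitted peak fell in each 4-hour window, for members and for all genes tested on each side; 44.1% of the members on west sides peaked between ZT16 and ZT20, against 16.6% of all genes.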

How the data were processed

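RNA was sequenced as 50-base single reads from phototropism and field libraries of stem peels. The authors quality-filtered the reads, quantified them with salmon 1.4.0 against transcripts taken with gffread (Cufflinks 2.2.1) from the Ha412HOv2.0 assembly and its HAN412_Eugene_curated_v1 annotation, and deposited the estimated counts per gene. They also deposited a second table per experiment, a signal of CPM normalized by the TMM method in edgeR. The methods list 8 phototropism time points without ZT4, whereas the sample labels give 9 with it, and the labels were followed.

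Members were found in the normalized CPM. For tests, the estimated counts were rounded, a change from the whole counts foreseen in the test plan, and a gene was kept where 6 (phototropism) or 3 (field) libraries or more held 10 or more counts. One edgeR quasi-likelihood model per experiment had a group for each side and time (edgeR 4.0.16, limma 3.58.1, R 4.3.3), with Benjamini-Hochberg adjustment over all genes tested and a threshold of 0.05. Fold changes are log2 of shaded over lit, west over east, or later over earlier. Rhythms were tested per side with a cosine of 24 hours fitted to CPM (scipy 1.17.1). The procedures were tested on simulated data. Alternatives were DESeq2 1.42.0, no filter, each replicate left out, replicate numbers as blocks, single time points or days, and other forms of the member rule.

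In the phototropism experiment, deviations from the group means correlated between shaded and lit libraries of the same time and number in 54 of 54 pairs (r of 0.358 to 0.902), so the numbers paired the sides. In the field, peels of both sides came from the same plants, but which plants share a number is not stated, so counts are given without and with the number as a block. Nothing states that the libraries came from separate growth rounds, so p-values measure the spread between these libraries. Estimated counts carry counting error that is larger in shallow libraries.

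Members and gene lists were chosen with earlier results of these data known. Named genes were the 10 with the largest d at ZT4, those named in the study, the members of the 8 lists (for lists of more than 6 members, the 4 with the highest mean CPM), the member with the smallest adjusted p in each direction at each tested time among members averaging 10 CPM or more, and per field side the rhythmic member with the largest relative amplitude, 45 in all. Genes outside this rule, among them the TPS7, LNG2, HERK1, AHK1, AHK2 and PIRL4 homologs, were chosen after their values were seen.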

Additional observations from a re-analysis of the deposited data

Results flagged for a closer look

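In 14 of 210 groups of 6 libraries checked, the highest or lowest library stood far from the others, where chance alone would flag about 1 in 20. In the PIN3 homolog Ha412HOChr12g0575561, lit replicate 2 at ZT4 had 141 CPM. The same lit library stood apart, as the highest, in the receptor-like kinase Ha412HOChr09g0422751 (25.5 CPM), the DnaJ gene Ha412HOChr06g0250351 (19.5 CPM) and NPH3-like Ha412HOChr01g0002101 (35.8 CPM), and shaded replicate 2 at ZT4 did so in Ha412HOChr06g0250351 (77.8 CPM). In the NPY2 homolog Ha412HOChr10g0459121, lit replicate 4 at ZT4 had 38.0 CPM, shaded replicate 2 at ZT5 had 57.2 CPM and lit replicate 2 at ZT5 had 37.3 CPM.

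At ZT5, replicate 1 stood apart on shaded sides in the ETR2 homolog Ha412HOChr03g0142771 (21.4 CPM) and the FLA17 homolog Ha412HOChr11g0525251 (79 CPM), and on lit sides, as the lowest, in the BES1 homolog Ha412HOChr09g0418091 (12.6 CPM). Shaded replicate 6 at ZT4 had 99.5 CPM in the FLA17 homolog and 91.8 CPM in the leucine-rich repeat kinase Ha412HOChr14g0655881, in which lit replicate 5 at ZT5 had 20.8 CPM.

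The change between ZT3 and ZT5 differed between the sides in 66 members by the interaction test, and the side difference changed between ZT5 and ZT9 in 15. The limits of the rule at ZT4, ZT12 and ZT15 favoured the second count.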

How the results depend on the processing

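Of 176 alternative values of the counts and tests, 109 stayed within 1.5 times the value reported, 67 moved further and 0 turned the direction. The 223 calls of named genes had 2090 alternative values, of which 290 lost the call and 0 turned the direction. Apart from the blocks, the alternatives are given without the share of all genes, so their counts have no background. With the pairs as blocks, members higher on shaded sides numbered 99 at ZT7, 82 at ZT9, 25 at ZT18 and 49 at ZT21, and every call made without blocks was kept. Members whose change from ZT3 to ZT5 was larger on shaded sides numbered 107, and those whose difference was smaller at ZT9 than at ZT5 numbered 77, in both cases with pairs as blocks that were added after the data were seen. Leaving out 1 replicate gave 18 to 31 at ZT9, 1 to 2 at ZT18, 3 to 8 at ZT21, 1 to 3 for the rise on lit sides to ZT5, 43 to 69 for the interaction to ZT5, 16 to 22 for the fall on shaded sides to ZT9 and 0 to 7 for the interaction to ZT9, while the ZT5 count stayed between 84 and 96. A model of 1 time point gave 8 at ZT18 and 13 at ZT21. Without the filter the count was 1 at ZT18, 8 for the interaction to ZT9, 0 at field ZT4 and 4 at field ZT20. With the replicate number as a block over time points, 6 fell on lit sides to ZT9 and the interaction to ZT9 gave 32. Libraries of the same number deviated together between ZT5 and ZT9 but not in every pair of lit libraries between ZT3 and ZT5 (lowest r of -0.0060). DESeq2 gave 23 for that interaction, and 2, 2 and 17 at field ZT0, ZT4 and ZT12.

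In the field, leaving out 1 replicate gave 0 at ZT4, 1 to 5 at ZT8, 3 to 5 at ZT12, 14 to 22 at ZT16 and 1 to 2 at ZT20. The first day alone gave 5, 3, 2, 9 and 1 at ZT0, ZT8, ZT12, ZT16 and ZT20, and the second day alone 0, 7, 5 and 21 at ZT4, ZT8, ZT12 and ZT16. With the replicate number as a block the counts from ZT0 to ZT20 were 7, 10, 32, 39, 63 and 20. The correlation of same-numbered field libraries was over 0.1 in 35 of 36 pairs and 0.0865 in the other, at ZT20. Apart from smaller tests (fewer libraries or genes), the cause of these shifts was not tested. The rule gave 266 genes with a pseudocount of 0.5 (141 of the 150 retained), 231 with 2 (140), 333 without the minimum (117) and 305 with medians (104).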
